A study of Mus musculus with 42 samples.

Results

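The transition from the late 2-cell to the 4-cell stage was followed in control mouse embryos by RNA sequencing (RNA-seq), in 8648 genes chosen only for being expressed, out of 15737 genes listed once in the deposited table. Levels are in FPKM, fragments scaled to the length of a gene's exons and to the depth of the library, and a gene entered when it reached 1 FPKM per library at either stage. Both groups were wild-type embryos from ICR females crossed to ICR males after superovulation with PMSG and hCG, taken 48 h (late 2-cell) and 58 h (4-cell) after hCG with no inhibitor or knockdown. The labels call them untreated, and according to the methods embryos were grown in KSOM medium and DMSO, the solvent of the inhibitors, served as negative control, so whether these libraries had the solvent is not settled here. Each group had 2 libraries, each made from 3 pooled embryos freed of the zona pellucida, so no value belongs to a single embryo or blastomere. An early 2-cell group, taken at 34 h with 2 libraries, is used only to show earlier levels.

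The early mouse embryo runs at first on RNA and protein that the oocyte stored. Zygotic genome activation (ZGA) begins with a small burst of transcription, minor ZGA, followed at the late 2-cell stage by a broad one, major ZGA. Clearance of oocyte transcripts proceeds in parallel, by deadenylation and decay, and genes that mark the 2-cell stage, such as the Zscan4 family, are switched off again soon after they come on. Once its genome is active the embryo builds its own ribosomes and other housekeeping machinery, ahead of compaction and the choice between trophectoderm and inner cell mass.

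The table holds 1 column per group, each the sum of its 2 libraries, and the 2 were separated again because a gene's value is a whole number of reads divided by its exon length and the library total. In the late 2-cell column 97.7% of values above 0 had a single whole-read solution, and in the 4-cell column 97.4%. The libraries held 6523488 (A) and 4164896 (B) reads at the late 2-cell stage and 6855134 (A) and 6527679 (B) at the 4-cell stage, where A is the deeper of the 2 and the letter carries no replicate number. Of the 8648 genes, 407 could not be separated and 8241 were tested. The rows cover chromosomes 1 to 10 and the start of 11, so genes elsewhere were not analysed here.

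The column used as 4-cell control is headed late 2-cell TSA in the table. For 84 genes a second listing from the same study gives 4-cell control values, and all 84, of which 47 lie above 0, equal that column rather than the column headed 4-cell control. The same listing's values for 4-cell embryos given FK866 together with NMN equal the column headed 4-cell control in 84 of 84 genes. Its values for 4-cell embryos given FK866 alone equal the column headed late 2-cell Sirt1, also in 84 of 84 genes. The headers therefore conflict with the other source, and which is right cannot be settled from the table. With the column headed 4-cell control in its place, 362 genes rose and 549 fell by the test below, of which 221 and 431 were the same genes. The summed level of 8 markers of the 2-cell embryo, 7 of them expressed, was 501 and 312 FPKM in the late 2-cell libraries and 11.5 and 21.7 FPKM in the 4-cell libraries. Their sum per library was 16.6 FPKM in the column used as 4-cell control and 44.4 FPKM in the column so headed, against 407 FPKM at the late 2-cell stage. For 7 markers of the 8-cell embryo to blastocyst it was 2176 and 1844 FPKM against 492 FPKM, nearly all of it from Dppa5a, a gene of pluripotent cells. Both columns thus differed from the late 2-cell column in the same direction, so the markers do not tell which of them is 4-cell control. Whether these levels go with the header late 2-cell TSA was not tested.

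More genes fell than rose, an order that turned round when each library was centred on its median (899 risen, 542 fallen). With limma on log2(FPKM + 1), 661 genes fell and 347 rose from the late 2-cell to the 4-cell stage at a Benjamini-Hochberg adjusted p under 0.05, which is 8.02% and 4.21% of the tested genes, or 12.2% in either direction. Counts of called members in the gene lists below are to be read against these shares. The fallen genes went from a median of 36.6 FPKM to 0.701 FPKM and the risen ones from 29.0 to 139 FPKM. No read remained in either 4-cell library for 196 of the fallen genes, and 34 of the risen genes had none in either late 2-cell library. This is no trait of the called genes, since 1910 of all 8241 tested genes had no read in either library of 1 stage. All the called genes had libraries that did not overlap between stages, but so did many others: both 4-cell libraries lay above both late 2-cell libraries in 24.1% of tested genes and below in 32.3%. In bulk libraries such as these, fewer cells with a transcript and less of it per cell cannot be told apart.

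**Figure D1:**
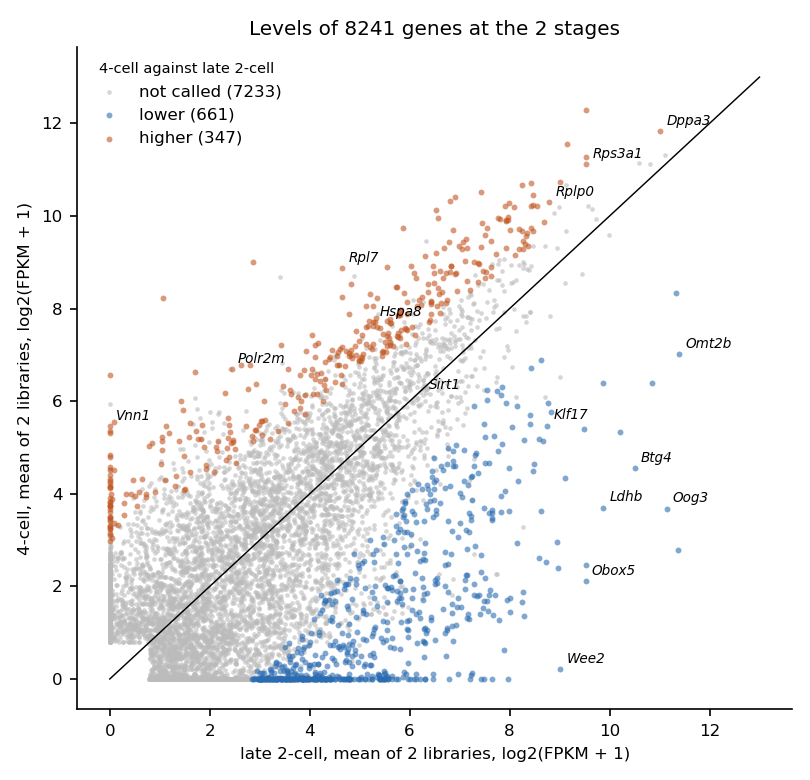
Mean level of the 8241 tested genes in the 2 late 2-cell libraries (horizontal axis) and the 2 4-cell libraries (vertical axis), both as log2(FPKM + 1), with the line of equal level. The 661 genes lower at the 4-cell stage (blue) include 196 with no read at the 4-cell stage, and the 347 higher ones (orange) lie above the line, from late 2-cell levels of 0, as for Vnn1, to 2058 FPKM for Dppa3.

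These levels are shares of a library, not amounts per embryo. The median difference over all tested genes was -0.45 on the log2 scale, the 10 most abundant genes took 20.6% of the summed FPKM at the late 2-cell stage and 26.1% at the 4-cell stage, and genes at 1 FPKM or more numbered 7649 and then 6084. The share of risen genes among the calls was 62.4% with centring on the median and 34.4% without. The calls rest on few libraries. None was left when either 4-cell library was left out, although 1783 and 1818 genes then had an unadjusted p under 0.05, against 2442 with all libraries, and limma voom on the recovered reads called 0 higher and 3 lower with 2357 genes at an unadjusted p under 0.05. The 2 late 2-cell libraries correlated at 0.770 and the 2 4-cell libraries at 0.857 (Pearson's r over the tested genes on the log2 scale), against 0.556 to 0.596 between stages.

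Genes of the oocyte were among those that fell. Wee2 (chr6:40439088-40466813), the oocyte kinase that holds CDK1 inactive, stood at 551 and 479.7 FPKM in late 2-cell libraries A and B and at 0.232 and 0.0976 FPKM in 4-cell libraries A and B. Its fall of 8.79 on the log2 scale was the largest of any named gene (standard error 0.41, adjusted p = 0.00736). Btg4 (chr9:51060901-51119875), the adaptor that brings the CCR4-NOT deadenylase to maternal mRNA, went from 1618 and 1304 FPKM to 23.2 and 21.8 FPKM, a fall of 5.95 (standard error 0.25, adjusted p = 0.0062). The oocyte gene Oog3 (chr4:144157557-144162663) was among the most abundant transcripts of the late 2-cell embryo, at 2281 and 2237 FPKM, and stood at 16.8 and 8.21 FPKM at the 4-cell stage (difference -7.46, adjusted p = 0.00811). In none of the 3 did the libraries of the stages come near each other. The noncoding RNA C86187 behaved alike, with 2428 and 2903 FPKM against 6.22 and 5.58 FPKM.

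Several genes lost every read. Mgst3, a microsomal glutathione S-transferase, had 185 and 171 FPKM at the late 2-cell stage and none in either 4-cell library, where a floor of 3 reads over the group makes it at least 879.8-fold lower. Such bounds, here and below, cover counting error only and not the spread between libraries. Reads in only 1 library were seen in 1601 tested genes at the 4-cell stage and 1680 at the late 2-cell stage. The microfibril protein gene Mfap2 went from 136 and 156 FPKM to no read (at least 778-fold lower). Mesp2, a basic helix-loop-helix factor of somite formation, did the same from 93.8 and 127 FPKM (at least 924-fold lower). Among other large falls, Bfsp1, a lens filament gene, had 169 and 135 and then 0.061 and 0.128 FPKM, and Tent5b, of a family of noncanonical poly(A) polymerases, 120.2 and 183 and then 0 and 0.134 FPKM. Trim61 was at 515 and 489 FPKM and then at 2.58 and 6.81 FPKM. In Rfpl4 the 4-cell libraries disagreed, with 0.085 and 26.7 FPKM after 742 and 734 FPKM, and its standard error of 1.50 was the highest of any called gene.

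**Figure D2:**
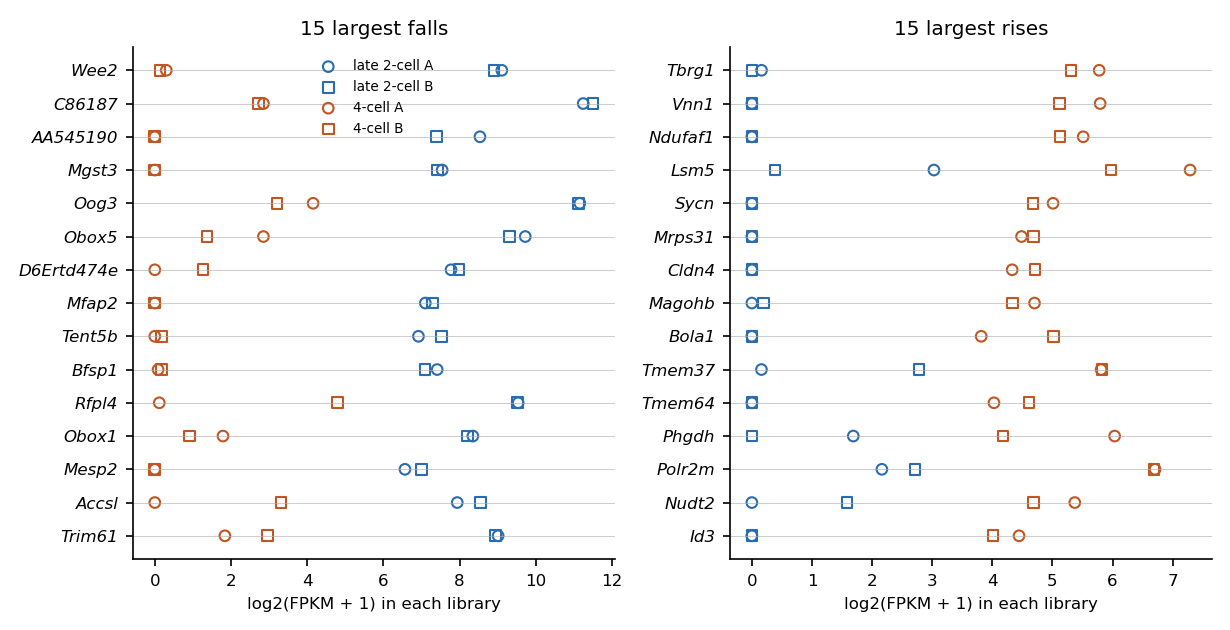
Level in each library, as log2(FPKM + 1), of the 15 genes with the largest falls (left) and the 15 with the largest rises (right) among called genes with a given name, shown by symbol, with late 2-cell in blue, 4-cell in orange, circles for library A and squares for library B. In every gene both libraries of one stage lie beyond both of the other; Vnn1, Ndufaf1, Sycn, Mrps31, Cldn4, Bola1, Tmem64 and Id3 have no read at the late 2-cell stage.

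Genes for maternal effect proteins and mRNA storage were mostly lower at the 4-cell stage. Of 32 tested, 16 fell and 1 rose. Both 4-cell libraries lay below both late 2-cell libraries in 27, against 32.3% of all tested genes. The median difference of the list was -3.53, or -4.71 with genes at 0 set at their bound, against -0.45 over all tested genes. Besides Oog3 and Rfpl4, Accsl fell from 244 and 375 to 0 and 8.91 FPKM and Oas1e, an oocyte member of the oligoadenylate synthetase family, from 123 and 63.1 to 0 and 0.17 FPKM. The ovary genes Omt2a and Omt2b kept a measurable level: Omt2b went from 2718 and 2634 FPKM to 109 and 151 FPKM (difference -4.37, adjusted p = 0.00811). The single riser was Dppa3, which encodes the maternal factor STELLA that guards DNA methylation, at 2069 and 2048 FPKM and then 3777 and 3530 FPKM, a difference of 0.83 with the smallest standard error among the risen genes, 0.10 (adjusted p = 0.0169).

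The subcortical maternal complex, a protein assembly under the egg membrane needed for the first divisions, lost transcripts of 5 of its 6 tested genes. Ooep went from 23.1 and 30.4 FPKM to no read, at least 247-fold lower. Padi6 fell from 82.8 and 52.7 to 1.38 and 5.2 FPKM and Tle6 from 75.5 and 77.2 to 5.24 and 4.76 FPKM (adjusted p = 0.0261 and 0.0164). Nlrp5, known as MATER, fell from 25 and 27 to 1.23 and 0 FPKM. The remaining member, Khdc3, had 0.523 and 7.85 FPKM and then 14.4 and 13.5 FPKM and was not called (adjusted p = 0.235); it is named here after its values were seen.

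Among the oocyte Nlrp genes, which lie in clusters of near-identical copies on chromosome 7, 7 of 9 tested fell and the median difference was -4.68. Nlrp14 was the most abundant, at 161 and 128 FPKM before and 0.124 and 5.2 FPKM after. Nlrp4e fell from 57 and 38.2 to 0 and 0.0451 FPKM, while Nlrp4a, from 27.4 and 34.3 FPKM, and Nlrp9a, from 29.4 and 46.3 FPKM, had no read at the 4-cell stage. Reads of such copies may be shared, so the split among them is uncertain. Oocyte transcription factors and secreted factors were lower on fewer calls: 2 of 7 factors fell (Nobox, 11.5 and 19 to 0 and 0.533 FPKM, and Lhx8, 6.18 and 15.6 FPKM to no read), as did 2 of 4 zona and secreted genes (Zp2, 36.5 and 37.6 to 0 and 2.64 FPKM, and Tgfb2, 85.3 and 44.6 to 0 and 3.36 FPKM). The sperm receptor gene Zp3 was still at 27.6 and 32.7 FPKM after 66.2 and 43.7 FPKM (adjusted p = 0.251).

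Genes of the mRNA decay machinery were called less often than those of the maternal lists, a difference that was not tested. Of 22 tested 3 fell and none rose, and the median difference was -0.80. Alongside Btg4, the deadenylase subunit Cnot7 went from 205 and 158 to 30.4 and 19.8 FPKM (difference -2.83, adjusted p = 0.02). Pabpn1l, an embryonic poly(A)-binding protein that works with BTG4, had 69.3 and 14.3 FPKM at the late 2-cell stage and no read at the 4-cell stage.

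In the list of the 2-cell programme most of the called genes fell. Of 28 tested, 11 fell and 1 rose, with a median difference of -2.31, or -3.19 with genes at 0 at their bound. Zscan4 genes, which encode zinc finger and SCAN domain proteins of the 2-cell state, fell in all 6 copies tested. Zscan4d went from 147 and 104 to 0.449 and 6.81 FPKM (difference -5.21, adjusted p = 0.0301), Zscan4c from 126 and 47.7 to 0.769 and 0.673 FPKM, and Zscan4f from 137 and 79.3 to 3.28 and 2.82 FPKM. Zfp352, a zinc finger gene of the 2-cell embryo, went from 67.2 and 63 FPKM to 6.35 FPKM in 1 4-cell library and 0.0673 FPKM in the other (adjusted p = 0.0477). Zscan5b, on the same chromosome as Zscan4, had 346 and 222 FPKM and then 207 and 158 FPKM, and the difference of -0.61 did not pass (adjusted p = 0.277). Duxf3, the homeobox activator of minor ZGA, stayed under 1 FPKM per library at both stages and was not tested. The riser was Pramel7, a PRAME family gene of the preimplantation embryo, from 86.5 and 89.9 to 331 and 429 FPKM (difference 2.08, adjusted p = 0.0179).

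Obox homeobox genes of chromosome 7 fell in 5 and rose in 2 of 8 tested. Obox5 (chr7:15750131-15759800) fell from 845 and 635 to 6.21 and 1.58 FPKM (difference -7.41, adjusted p = 0.0137), Obox1 from 325 and 296 to 2.46 and 0.887 FPKM, Obox2 from 138 and 137 to 3.1 and 3.72 FPKM and Obox7 from 32.2 and 42.9 to 0 and 0.0956 FPKM. The risers were Obox8 and Crxos. Obox8 had 216 and 275 FPKM before and 638 and 622 FPKM after (difference 1.36, adjusted p = 0.0256), and Crxos 90 and 81.3 and then 251 and 220.4 FPKM (adjusted p = 0.0324). Obox6 was higher in both 4-cell libraries, 302 and 443 against 185 and 145 FPKM, without passing the test (adjusted p = 0.067). In the early 2-cell column Obox5 stood at 831 FPKM per library and Obox1 at 1495, while Obox8 stood at 0.456, Crxos at 1.53 and Obox6 at 2.48.

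Genes for cytosolic ribosomal proteins had the highest median difference of the 30 gene lists compared. Of 44 tested, 32 rose and none fell. Both 4-cell libraries lay above both late 2-cell libraries in 42, against 24.1% of all tested genes. The median difference was 1.72 on the log2 scale, which is 2.17 above the median of all tested genes. Rpl7 (chr1:16101295-16104662), a protein of the large subunit, went from 27 and 21.7 FPKM to 488 and 445 FPKM, the largest rise of the list (4.21, standard error 0.29, adjusted p = 0.011). Rpl7a followed, from 27.1 and 27.9 to 475 and 287 FPKM, and Rpl14, from 48.2 and 43.8 to 665 and 336 FPKM. At the top of the abundance scale, the small-subunit gene Rps3a1 went from 874 and 627 to 2561 and 1951 FPKM and the stalk protein gene Rplp0 from 408 and 478 to 1248 and 1278 FPKM. Rplp1, at 2028 and 2032 FPKM in the late 2-cell libraries, could not be separated in the 4-cell column, which gives 6088 FPKM per library. Rps27l, a variant of Rps27, overlapped between the stages, with 1177 and 872 FPKM and then 949.6 and 621 FPKM, and did not pass the test (adjusted p = 0.405). Ribosomal protein genes have many processed pseudogenes, and pseudogenes were 108 of the 347 risen genes against 79 of the 661 fallen and 1133 of all tested, so reads may be shared between them.

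**Figure D3:**
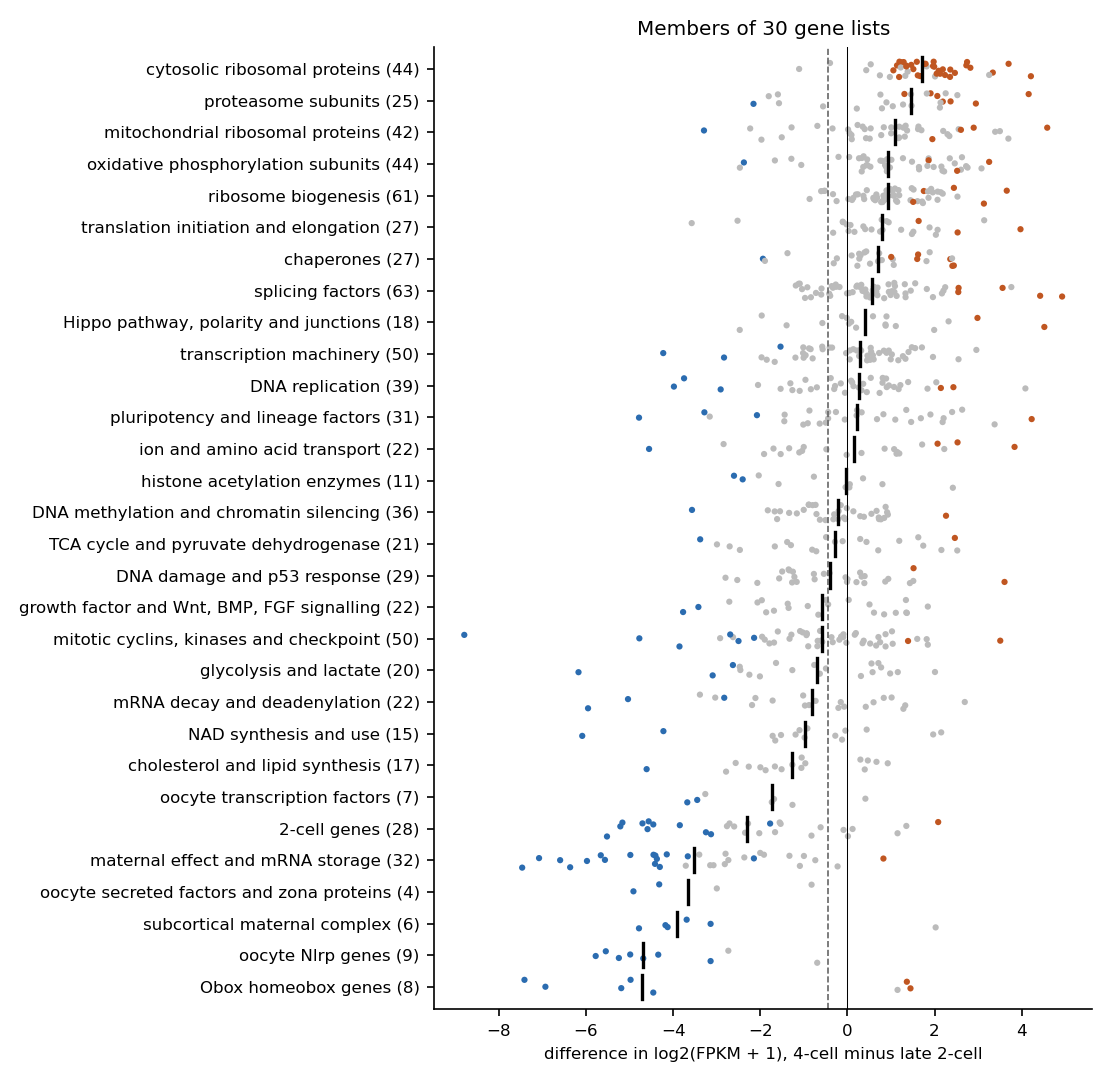
Difference in log2(FPKM + 1), 4-cell minus late 2-cell, of each tested member (points) of 30 gene lists, with the number tested in brackets, the list median as a black bar, the median of all tested genes, -0.45, as a dashed line, and genes higher in orange and lower in blue. Cytosolic ribosomal proteins, with a median of 1.72, stand at the top and the Obox, oocyte Nlrp and subcortical maternal complex genes at the bottom.

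Around the ribosome the shift was broad but mostly under the threshold. In ribosome biogenesis 5 of 61 tested genes rose and none fell, close to the background of 4.21%. Both 4-cell libraries lay higher in 41, against 24.1% of all tested genes, and the median difference was 0.93. Naf1, an assembly factor of H/ACA small nucleolar particles, rose from 2.13 and 3.34 to 32.3 and 30.3 FPKM and Pop4, a subunit of RNase P and RNase MRP, from 1.61 and 3.88 to 39.7 and 48.8 FPKM. The nucleolar helicase gene Ddx21 rose from 21.7 and 12.8 to 107 and 84.8 FPKM (adjusted p = 0.0316). Npm1, the nucleolar chaperone nucleophosmin, had 281 and 279 FPKM and could not be separated at the 4-cell stage, where the column gives 1209 FPKM per library. Of 27 translation factors 3 rose and none fell: Eif3m from 10.8 and 3.15 to 153 and 77.3 FPKM, Eif3c from 63.7 and 74.5 to 431 and 376 FPKM and Eef1b2 from 66.4 and 53.2 to 236 and 148 FPKM. The elongation factor gene Eef1a1, at 484 and 501 and then 616 and 655 FPKM, was not called (adjusted p = 0.217).

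Protein turnover and folding genes had positive medians too. Of 25 proteasome subunits 7 rose and 1 fell, with a median difference of 1.46 for the proteasome. Psma5, of the catalytic core, had 13.3 and 1.64 FPKM and then 106 and 111 FPKM, and Psmd7, of the regulatory particle, 22.6 and 49.9 and then 239.6 and 297 FPKM (adjusted p = 0.0434 and 0.0254). The faller, Psme4, encodes the activator PA200 rather than a subunit of the common particle and went from 53.8 and 60.4 to 11.6 and 12.4 FPKM. Of 27 chaperones 6 rose and 1 fell: the constitutive heat shock protein gene Hspa8 from 41.3 and 34.3 to 191 and 228 FPKM, Hspa5, which acts in the endoplasmic reticulum, from 4.75 and 3.75 to 24.4 and 29.3 FPKM, and Dnaja1, a co-chaperone, from 32.7 and 19.8 to 139 and 131 FPKM. The small heat shock protein gene Hspb1 fell, from 123 and 107 to 29.1 and 29.4 FPKM.

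Splicing factors had a median difference of 0.58, with 5 of 63 (7.94%) higher and none lower. Lsm5, of the ring that binds U6 small nuclear RNA, had 7.16 and 0.303 FPKM at the late 2-cell stage, nearly all of it in library A, and 155 and 61.9 FPKM at the 4-cell stage (difference 4.93, adjusted p = 0.0434). Magohb, of the exon junction complex, rose from 0 and 0.14 to 25 and 19.1 FPKM, whereas its paralogue Magoh had 907 and 802 FPKM and then 1149 and 844 FPKM (adjusted p = 0.498). Snrpb, of the Sm core, rose from 24.7 and 14.1 to 123 and 106 FPKM. The general transcription machinery had 3 of 50 members lower (6%, under the 8.02% of all tested genes) and none higher: Taf3, of TFIID, from 45.9 and 40.9 to 0.0457 and 4.36 FPKM, the RNA polymerase II subunit gene Polr2c from 185 and 253 to 29.4 and 29.7 FPKM, and Med27, of Mediator, from 233 and 198 to 67.1 and 80.5 FPKM. Their median was 0.28, above that of all tested genes. Polr2m, known as GDOWN1 and not in that list, was among the largest rises, from 3.48 and 5.55 to 103 and 102 FPKM (adjusted p = 0.0139).

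Mitochondrial genes shifted upward with few calls. Oxidative phosphorylation subunits had a median difference of 0.94 with 3 of 44 higher and 1 lower, and mitochondrial ribosomal proteins 1.09 with 4 of 42 higher and 1 lower. That is 6.82% higher and 2.27% lower in the first list and 9.52% and 2.38% in the second. Of all tested genes 4.21% were higher and 8.02% lower. Atp5k, of the ATP synthase, rose from 12.4 and 31.6 to 122 and 116 FPKM and Ndufa5, of complex I, from no read to 7.77 and 9.35 FPKM. Ndufa4 went the other way, from 118 and 66.4 to 13 and 20.3 FPKM. Mrps31, of the small mitochondrial subunit, had no read at the late 2-cell stage and 21.4 and 24.7 FPKM at the 4-cell stage, at least 269.9-fold higher. Mrpl48 had 8.29 and 9.31 FPKM and then no read. Ndufaf1, a complex I assembly factor, also had no read at the late 2-cell stage, with 44.6 and 34 FPKM at the 4-cell stage (at least 211-fold higher).

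The called genes of glycolysis and of NAD metabolism fell. Ldhb, the lactate dehydrogenase subunit stored by the oocyte, dropped from 892 and 984 FPKM to 8.18 and 17.5 FPKM (difference -6.17, standard error 0.42, adjusted p = 0.011). The other lactate dehydrogenase gene, Ldha, fell from 20.6 and 35.6 to 2.64 and 4.67 FPKM and Gapdh from 12.3 and 13 to 1.09 and 0.222 FPKM, so 3 of 20 glycolytic genes were lower and none higher. Of 15 genes of NAD synthesis and use 2 fell. As shares, 15% of the glycolytic and 13.3% of the NAD genes were lower, against 8.02% of all tested genes. Parp12, a mono-ADP-ribosyltransferase that consumes NAD, went from 141 and 250.3 to 3.69 and 0.652 FPKM (adjusted p = 0.0164) and Sirt4, a mitochondrial sirtuin, from 22.5 and 13.8 FPKM to no read. Sirt1, the nuclear NAD-dependent deacetylase that the study knocked down in other embryos, had 86.6 and 66.2 FPKM and then 65.8 and 73.4 FPKM, overlapping between stages, with a difference of -0.12 (standard error 0.33, adjusted p = 0.799). In the tricarboxylic acid list Idh3b rose (5.42 and 4 to 37 and 24.8 FPKM) and malic enzyme Me1 fell (67 and 91.8 to 7.62 and 5.77 FPKM), 1 of 21 each way. Mat2a, which makes S-adenosylmethionine, had 67.2 and 44.3 FPKM and then 103 and 282 FPKM (adjusted p = 0.133). Of 17 cholesterol and lipid genes only mevalonate kinase, Mvk, was called, from 18.3 and 29.7 FPKM to no read.

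Chromatin regulators changed in few members. Of 11 histone acetylation genes, Brdt, a bromodomain reader of acetylated histones, fell from 304 and 228 to 43.8 and 41.2 FPKM (adjusted p = 0.0166) and Brd7, of SWI/SNF, from 52.5 and 35.8 to 5.26 and 10.3 FPKM. Among 36 genes of DNA methylation and silencing, Tet3, the maternal 5-methylcytosine oxidase, fell from 10.1 and 14.2 to 0 and 0.202 FPKM and Cbx3, which encodes heterochromatin protein HP1 gamma, rose from 29.7 and 23.5 to 159 and 107 FPKM. The other members of both lists did not pass. As shares, 18.2% of the acetylation list were lower, and 2.78% of the methylation list were called each way.

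In the cell cycle list 6 of 50 genes fell and 2 rose, which is 12% and 4% against 8.02% and 4.21% of all tested genes. Apart from Wee2, the E2F factor genes E2f5 and E2f4 fell. E2f5 went from 698 and 441 to 16.2 and 23 FPKM, and E2f4 from 157 and 154 to 25.7 and 21.1 FPKM. The CDK inhibitor gene Cdkn2c fell from 9.76 and 18.4 FPKM to no read. Cdk4, the G1 kinase that this inhibitor binds, rose from 9.39 and 3.4 to 85.4 and 67.4 FPKM (difference 3.51, adjusted p = 0.0282), as did the anaphase activator gene Cdc20, from 92.7 and 119.8 to 261 and 296 FPKM. In DNA replication the calls were near the background, with 7.69% lower and 5.13% higher against 8.02% and 4.21% of all tested genes: 3 of 39 fell, among them Rfc5, of the clamp loader, from 49.6 and 70.8 to 2.72 and 2.92 FPKM, and Dut, the dUTPase, from 193 and 188 to 27.4 and 21.8 FPKM, and 2 rose, both of the GINS helicase complex, Gins3 from 20.1 and 24.8 to 149 and 105 FPKM and Gins4 from 36.4 and 85.4 to 247 and 253 FPKM. Of 29 genes of the p53 response 2 rose, or 6.9%. They were Bax, a mediator of apoptosis, from 2.63 and 0.152 to 27.4 and 20.8 FPKM, and Tigar, from 55.9 and 44.8 to 155 and 137 FPKM.

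Of 31 pluripotency and lineage factors 3 fell and 1 rose. These shares, 9.68% and 3.23%, were close to the 8.02% and 4.21% of all tested genes. The most abundant, Dppa5a, had 453 and 506 FPKM at the late 2-cell stage and could not be separated at the 4-cell stage, where the column gives 2129 FPKM per library. Klf17, a Kruppel-like factor of the 2-cell embryo, fell from 426 and 434 to 34.5 and 54.3 FPKM (difference -3.28, adjusted p = 0.0137) and Yap1, the Hippo effector, from 65.5 and 53.8 to 10.6 and 16.6 FPKM. A pair of inhibitors of basic helix-loop-helix factors moved in opposite directions: Id1 fell from 19 and 58.4 to 0.126 and 0.396 FPKM and Id3 rose from no read to 20.8 and 15.1 FPKM (at least 115-fold higher). Cldn4, a tight junction gene later used by the trophectoderm, had no read in the late 2-cell libraries and 19.1 and 25.1 FPKM in the 4-cell libraries (at least 143-fold higher), and the integrin gene Itgb1 rose from 0.0751 and 0 to 7.4 and 7.02 FPKM, so 2 of 18 genes in the junction and Hippo list, which does not hold Yap1, rose and none fell. Among 22 transporters 3 rose, the water and glycerol channel gene Aqp3 from 0 and 0.919 to 17.4 and 20.3 FPKM, the sodium pump subunit gene Atp1b3 from 57.6 and 50.9 to 275 and 193 FPKM and the vitamin transporter gene Slc5a6 from 20.4 and 28 to 114 and 177 FPKM, and the zinc exporter gene Slc30a1 fell from 68.7 and 25.8 to 0.139 and 1.99 FPKM. Of 22 signalling genes Egfr, from 10.3 and 9.14 FPKM to no read, and Smad3, from 14.3 and 22.7 to 0.632 and 0.193 FPKM, fell. As shares, 11.1% of the junction list rose, 13.6% of the transporters rose and 4.55% fell, and 9.09% of the signalling genes fell.

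Several of the largest rises among genes with a given name outside these lists began from almost nothing. Vnn1 (chr10:23894688-23905343), a pantetheinase that recycles pantothenate, had no read in either late 2-cell library or in the early 2-cell column and 54.5 and 33.8 FPKM at the 4-cell stage, at least 382-fold higher (adjusted p = 0.0139). Tbrg1, a growth regulator of the p53 circuit, went from 0.118 and 0 to 53.8 and 38.6 FPKM, and Sycn, known as a pancreatic granule protein gene, from no read to 31.2 and 24.5 FPKM. Phgdh, the first enzyme of serine synthesis, rose from 2.22 and 0 to 64.5 and 17.1 FPKM with unequal 4-cell libraries (adjusted p = 0.0493). Among abundant genes, Ptma, encoding prothymosin alpha, rose from 427 and 296 to 1271 and 1530 FPKM (difference 1.97, adjusted p = 0.017), while the ubiquitin ligase gene Siah2, at 1160 and 1205 FPKM among the 10 most abundant coding genes of the late 2-cell libraries, fell to 32 and 48.9 FPKM (difference -4.87, adjusted p = 0.0101).

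Fallen genes sat together in places. The stretches below were found by searching for runs of nearby genes called in the same direction, and each ends at called genes. Their shares of fallen genes are therefore partly set by the search. On chromosome 7, 12 of 26 tested genes between positions 14659496 and 15922402, which hold Obox genes but not Obox8, fell and 1 rose, and so did 9 of 18 between 10794242 and 11614112, around Zscan4, with no riser. Another stretch of that chromosome, from 19911825 to 23441922, held 19 fallen genes of 34, among them Nlrp4e, Nlrp5 and a run of predicted genes. All 6 tested genes of the Oas1 region of chromosome 5 (120786226 to 121010092) fell. These are arrays of similar copies, so one transcript source may supply several rows, and the counts are not those of independent genes. Chromosome 7 had the highest share of fallen genes, 10.1%, against 5.83% to 9.02% on the others, and risen genes made up 3.61% to 6.73%.

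Called genes also differed in build. The exons of the risen genes had a median total of 1664 bases in 4 blocks, those of the fallen genes 2493 bases in 6 blocks, and those of all tested genes 3153 bases in 7 blocks. Of the risen genes 65.1% were protein-coding, of the fallen 74.3% and of all tested 75.3%. A further 77 fallen and 9 risen genes were long noncoding, antisense or processed transcripts, of 714 tested. With a column fold above 2 in place of the test, the median exon length of the higher genes was 2643 bases and pseudogenes made up 18.9% rather than 31.1%, so the short length of the risen set depends on which genes pass the test.

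Promoter sequence was compared for 5540 tested genes with a RefSeq window, 250 bases before to 50 after the start (GRCm38.p6). Of the fallen genes' windows 22.2% (99 of 446) held fewer than 5 CG dinucleotides, against 11.6% of all tested and 7.74% (14 of 181) of the risen. The letters CCGGAAG, the core bound by ETS-family factors, occurred on either strand in 26.5% of the risen windows, 18.7% of all tested, 12.6% of the fallen and 9.12% of all RefSeq windows of that length. Among the 23 risen ribosomal protein genes with a window the share was 39.1%, and among the other risen genes 24.7%. These letters hold a CG themselves, so their share and the CG count are not separate results. They were 1 of 15 motifs searched, and others differed too. The CACCC box of KLF factors occurred in 50.3% of risen, 60.3% of fallen and 60.1% of all tested windows. The GC box of KLF and SP factors occurred in 60.8%, 52.9% and 61.5%. A match is only a match of letters, and 1049 of the windows belong to genes with further listed starts.

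**Figure D4:**
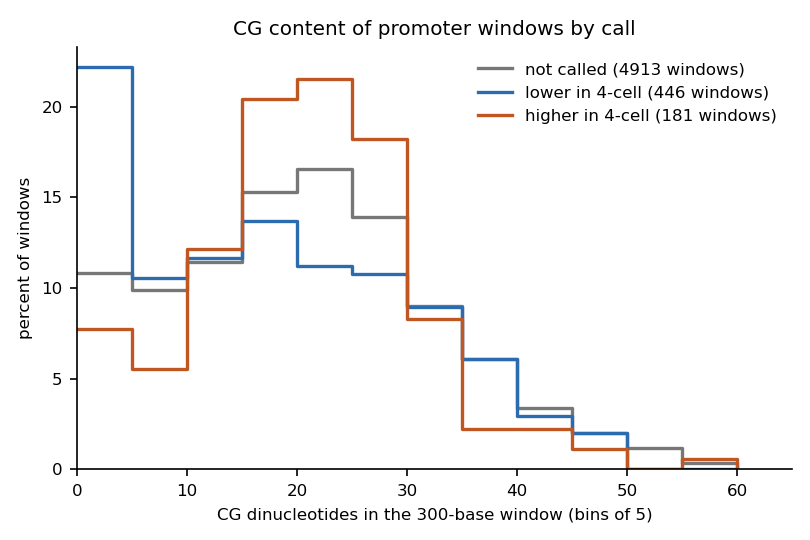
Percent of promoter windows (vertical axis) by their number of CG dinucleotides in bins of 5 (horizontal axis), for genes not called (grey, 4913 windows), lower at the 4-cell stage (blue, 446) and higher (orange, 181). The lowest bin, under 5 CG, holds 22.2% of the lower genes and 7.74% of the higher ones.

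As examples, the 250 bases before the start are printed 5′ to 3′ for a pair of risen ribosomal protein genes (Rps6 was chosen after its values were seen) and a pair of fallen oocyte genes, with each CG in capitals. They are not typical of their sets. Over whole windows the median was 20 CG among risen genes, 17 among fallen genes and 20 among all tested genes. Most fallen windows were not poor in CG, and most risen windows lacked the ETS letters. The start is that of the RefSeq window, which for Btg4 lies inside the span given above, as GENCODE lists transcripts from several starts.
Rps21 (chr2:180257129-180257378, plus strand): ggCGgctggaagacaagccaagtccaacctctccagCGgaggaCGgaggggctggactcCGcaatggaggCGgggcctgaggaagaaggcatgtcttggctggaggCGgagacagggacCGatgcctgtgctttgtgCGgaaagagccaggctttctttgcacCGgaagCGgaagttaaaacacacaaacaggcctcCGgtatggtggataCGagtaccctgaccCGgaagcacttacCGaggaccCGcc
Rps6 (chr4:86857368-86857617, minus strand): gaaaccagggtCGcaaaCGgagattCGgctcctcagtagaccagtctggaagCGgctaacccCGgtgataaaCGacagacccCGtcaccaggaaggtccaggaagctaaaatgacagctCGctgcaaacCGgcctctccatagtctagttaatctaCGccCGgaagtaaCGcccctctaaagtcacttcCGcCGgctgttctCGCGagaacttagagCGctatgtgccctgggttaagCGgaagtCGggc
Oog3 (chr4:144162652-144162901, minus strand): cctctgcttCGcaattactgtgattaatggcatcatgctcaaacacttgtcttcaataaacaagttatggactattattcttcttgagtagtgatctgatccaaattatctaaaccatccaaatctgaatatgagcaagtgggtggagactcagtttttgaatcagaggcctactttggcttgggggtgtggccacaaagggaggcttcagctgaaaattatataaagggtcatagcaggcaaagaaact
Btg4 (chr9:51115751-51116000, plus strand): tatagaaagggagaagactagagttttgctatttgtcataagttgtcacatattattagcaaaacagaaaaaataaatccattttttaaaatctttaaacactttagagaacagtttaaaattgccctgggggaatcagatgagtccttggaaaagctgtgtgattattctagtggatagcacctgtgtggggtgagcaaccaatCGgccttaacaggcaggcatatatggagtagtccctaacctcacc
Rps21, which rose from 356 and 329 to 1282 and 1102 FPKM, carries 15 CG in this stretch and 2 copies of CCGGAAG, and Rps6, which rose from 273 and 181 to 1067 and 889 FPKM, carries 19 CG and 1 copy. Oog3 and Btg4, described above, carry 1 CG each and no copy.

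Levels at the earlier stage are given beside these, with the caution that the early and late 2-cell comparison uses the same late 2-cell libraries. The genes that fell had a median of 33.3 FPKM per library at the early 2-cell stage, 36.6 at the late 2-cell stage and 0.701 at the 4-cell stage. The genes that rose had 7.15, 29.0 and 139 FPKM. The median of the maternal effect and storage list went down at each step, from 223 to 47.0 to 4.25 FPKM per library, although members such as Oog3 and Dppa3 did not follow it, and so did the median of the subcortical maternal complex, from 85.8 to 26.4 to 1.95. In the 2-cell list the median was 5.68, then 34.2, then 2.97 FPKM, highest in the middle. Cytosolic ribosomal protein genes had medians of 15.3, 126 and 466 FPKM, and proteasome subunits 18.0, 16.4 and 37.1, so the latter differed little before the 4-cell stage.

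**Figure D5:**
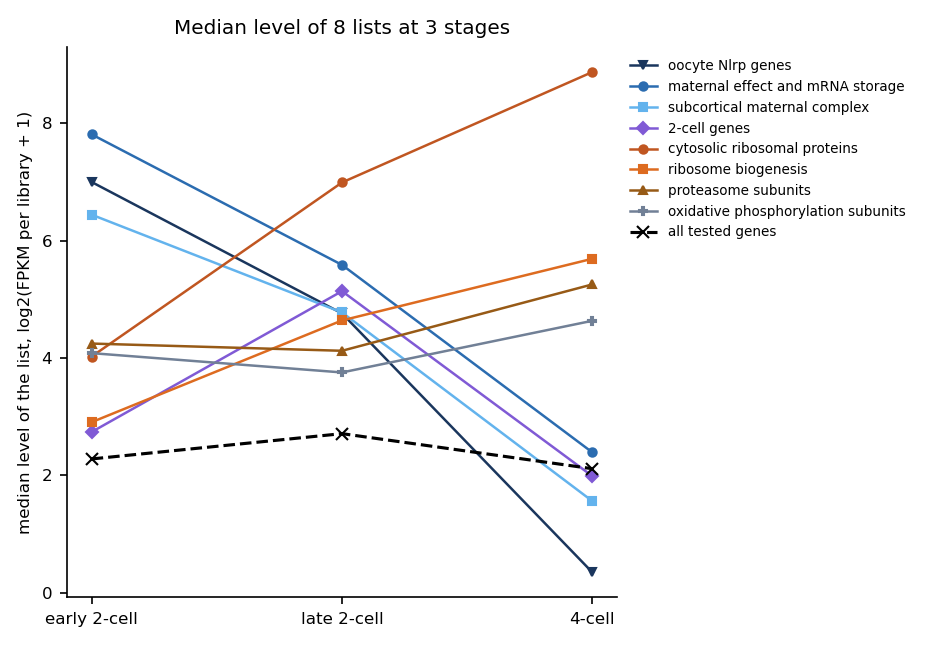
Median level of the members of 8 gene lists (coloured lines) and of all tested genes (dashed) in the columns of the 3 stages in order of time, as log2(FPKM per library + 1). The medians of the maternal lists slope down throughout, the 2-cell list peaks at the late 2-cell stage, at a median of 34.2 FPKM, and the ribosomal protein list climbs from 15.3 to 466 FPKM.

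Single genes took each of these courses. Ldhb stood at 1904 FPKM per library in the early 2-cell column and Rfpl4 at 2760, above their late 2-cell values. Omt2b, at 539 FPKM, and Siah2, at 286 FPKM, were lower there than at the late 2-cell stage, before falling at the 4-cell stage. Rps21 was at 24.6 FPKM and Pramel7 at 1.23 FPKM, below both later stages. The pair Gins4 and Idh3b differed: Gins4 had 193 FPKM at the early 2-cell stage, above its late 2-cell value, and Idh3b 1.5.

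Markers of other cells differed in level. Of 10 cumulus and granulosa markers among the rows 1 was expressed, of 3 oviduct markers none and of 5 stromal markers 1, with summed levels of 0 to 5.34 FPKM per library for cumulus cells and 0.123 to 4.05 FPKM for stroma. Sperm markers summed to 49.9 and 40.4 FPKM at the late 2-cell stage and 1.51 and 5.82 FPKM at the 4-cell stage, largely Odf2, an outer dense fibre and centrosome gene that fell from 35.5 and 29.4 to 1.51 and 2.13 FPKM. Blood markers summed to 28.7 and 35.5 FPKM and then to 6.02 and 24.8 FPKM. Their part in the other results was not tested.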

How the data were processed

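RNA-seq of untreated embryos gave 2 libraries per stage, from 3 embryos each. According to the study's methods, reads were trimmed with Trim Galore, aligned to mm10 with HISAT2 and counted per gene with featureCounts, with versions not given in the sources used here, and the authors deposited FPKM values, 1 column per group, with no raw counts. FPKM is a share of the library, so a rise in some genes lowers the rest. Values were multiplied by GENCODE M21 exon lengths and each column was separated into 2 libraries by solving for whole reads; 2.20% of late 2-cell values and 2.14% of 4-cell values were not whole reads. The last of 15748 rows is cut short and was left out, and 15356 genes had an exon length. The separation and test were tested on simulated data.

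Groups were taken from the labels and columns from the header comparison given above. limma 3.58.1 (lmFit, eBayes with trend, R 4.3.3) was fitted to log2(FPKM per library + 1) of the 8241 separated genes at 1 FPKM or more, two-sided, with Benjamini-Hochberg adjustment over all of them and a threshold of 0.05. Fold changes on this scale understate those of low genes. The 4 libraries are the only replicates, nothing says they came from separate matings, and intervals and floors cover counting error only. A floor of 3 reads over both libraries stood in for a group at 0. Gene values just inside and outside the expression minimum were 1.00 FPKM (Tmem132d) and 0.999 FPKM (Gm45597).

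The genes, the 30 pathway lists and the 8 marker lists were chosen with earlier results of these data known. Genes named are, in each list, up to 4 called members with the largest difference in each direction and the 2 most abundant; the 15 largest called rises and falls without overlap and with a given name; the 10 most abundant coding genes of each column; and those the study names for RNA-seq. Of the latter, Arl16, Nampt, Acly and Glud1 are not among the rows used here. Promoter windows are RefSeq's, and 15 motifs were searched on both strands, of which the ETS core is described most fully. Alternatives are listed in the closing section.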

Additional observations from a re-analysis of the deposited data

How the results depend on the processing

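No paired analysis was possible because the columns carry no replicate numbers for the libraries separated from them. The counts of genes higher and lower (347 and 661) stayed within 1.5 times with a pseudocount of 0.1 or 5, a minimum of 5 FPKM, the column headed 4-cell control, all separable columns sharing the spread, and a fold above 2 added to the test. They moved to 20 and 21 with no filter on low values, to 0 and 3 with limma voom on recovered reads, and to 59 and 336 without the trend. With no filter, 1 of the higher and 19 of the lower genes were also called in the main fit. A column fold above 2 with no test gave 2007 and 3569, and centring each library on its median gave 899 higher. Leaving out 1 library at a time, with the lone library assumed to vary like the other stage, gave 0 to 119 higher and 0 to 1418 lower genes: none without 4-cell library A or without B, 119 and 1418 without late 2-cell library A, 103 and 1165 without B. The cause was not tested. Of the 119 called genes named in the text, none reversed under the alternatives that gave it a value; 60 kept their call without the trend, 111 with centring and 3 with voom. With the column headed 4-cell control 88 kept and 29 lost it, and with all separable columns sharing the spread 82 kept and 10 lost it, the others having no value there.

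Gene lists with a median above 0 numbered 14 of 37 and 11 to 21 under the alternatives, 18 when the median of all tested genes was subtracted, an alternative chosen after seeing the data. Centring turned the sign of 7 lists: the tricarboxylic acid cycle, histone acetylation, DNA methylation and silencing, cell cycle, p53, signalling and blood lists. Signs also depended on single libraries. Of 37 lists, 37 kept their sign without late 2-cell library A and 30 without B, and 36 without 4-cell library A and 32 without B. The pluripotency, tricarboxylic acid cycle and p53 lists turned without either library B. With the column headed 4-cell control 34 kept it, and glycolysis was among those that turned. With it, the differences of uncalled genes changed sign for Sirt1 (0.54), Zscan5b (0.053) and Rps27l (0.27). Leaving out 1 library gave differences of -0.31 to 0.068 for Sirt1 and of -0.015 to 0.43 for Magoh. With a column fold above 2, 17.5% of the lower genes' windows had under 5 CG, and the higher genes had a median exon length of 2643 bases and 18.9% pseudogenes. With the column headed 4-cell control, the risen genes' median at the early 2-cell stage was 4.66 FPKM and the fallen genes' at the 4-cell stage 3.37 FPKM. Detection also differed between libraries: 1680 tested genes had reads in only 1 late 2-cell library and 1601 in only 1 4-cell library. Genes with a read numbered 7596 and 8391 in late 2-cell libraries A and B. In 4-cell libraries A and B they numbered 6441 and 7480, so the deeper library A had fewer at both stages. The cause was not tested.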
